A study of Mus musculus with 6 samples.

Results

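Toll-like receptors (TLRs), their adaptors and the cytosolic sensors of nucleic acids and bacterial fragments were examined in synovial fibroblasts, the connective tissue cells of the joint lining. The set was 37 genes fixed by symbol, and 35 of them had a row among the 24348 genes of the count table. Tlr8 and Tlr9 had no row, and their expression was not analysed here. Of the 35, 31 had at least 10 counts in at least 3 libraries and were tested, among 19925 genes tested in all. Tlr1, Tlr7, Nlrp3 and Aim2 lay below that count and are given as raw counts.

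Bulk RNA sequencing was done on fibroblasts sorted from collagenase-digested synovium of adult wild-type C57BL/6 mice. The mice of 3 libraries had received immune complexes (IC) intravenously, and those of the other 3 vehicle, which the labels also call control. The study made its IC from ovalbumin and rabbit antiserum against ovalbumin. The time between injection and sorting is not given in the sources used here, nor is the number of mice behind each library, so p-values measure the spread between these libraries.

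TLRs are membrane receptors that recognise conserved microbial molecules and products of damaged tissue. Those at the cell surface bind lipids and proteins, those in endosomes bind nucleic acids, and both groups signal through the adaptors MyD88 and TRIF to NF-kB and interferon regulatory factors. In the cytosol, RIG-I-like receptors bind viral RNA, the cGAS-STING route responds to DNA, and NOD proteins respond to peptidoglycan fragments of bacteria. Stromal cells carry parts of this machinery, and many of the cytosolic sensors are themselves induced by interferons.

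Promoter windows from RefSeq, on mouse build GRCm38.p6, were found for 28 of the 37 genes. They reach from 250 bases before to 50 bases after each annotated start. They were searched on both strands for the interferon response element core GAAANNGAAA, the gamma-activated site TTCNNNGAA and the kappaB consensus. The stretches below are those of the called genes with a window, Ddx58 and Nod1, of Tlr5, the TLR gene with the largest difference between groups, and of the Ifih1 match. Each is written 5′ to 3′ along the gene, with any interferon response element in capitals. Those of Ddx58, Nod1 and Tlr5 are cut at 30 bases from the annotated start on. For Ifih1 the last 30 bases of the window are given. Ddx58 (chr4:40239796-40240075, minus strand) had its match 2 to 11 bases after the start, counting the start as 0, and Ifih1 (chr2:62646206-62646235, minus strand) had its match 32 to 41 bases after it. The stretches of Nod1 (chr6:54972583-54972862, minus strand) and Tlr5 (chr1:182954538-182954817, plus strand) held no such match.
Ddx58: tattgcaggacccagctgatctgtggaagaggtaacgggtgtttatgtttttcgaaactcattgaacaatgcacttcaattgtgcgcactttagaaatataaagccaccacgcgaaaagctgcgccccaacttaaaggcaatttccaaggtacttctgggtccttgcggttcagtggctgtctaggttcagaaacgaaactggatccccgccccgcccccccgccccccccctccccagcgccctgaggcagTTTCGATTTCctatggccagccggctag
Ifih1: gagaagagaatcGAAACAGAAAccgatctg
Nod1: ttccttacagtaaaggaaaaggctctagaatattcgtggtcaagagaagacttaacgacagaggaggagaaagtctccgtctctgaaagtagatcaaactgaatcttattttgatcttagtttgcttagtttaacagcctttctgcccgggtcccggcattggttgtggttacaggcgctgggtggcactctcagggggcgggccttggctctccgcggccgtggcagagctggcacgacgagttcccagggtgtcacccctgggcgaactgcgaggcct
Tlr5: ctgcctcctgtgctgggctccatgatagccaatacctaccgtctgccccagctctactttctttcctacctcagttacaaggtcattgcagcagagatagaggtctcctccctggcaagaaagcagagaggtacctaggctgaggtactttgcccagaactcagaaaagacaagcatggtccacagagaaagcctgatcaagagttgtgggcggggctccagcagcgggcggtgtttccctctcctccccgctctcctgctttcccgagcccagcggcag

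The interferon response element was in the windows of 4 of the 28 genes, Ddx58, Ifih1, Myd88 and Tlr6, against 3.99% of the 27025 genes with a window. The kappaB consensus was in those of Nlrp3, Tlr2, Tlr3 and Traf3, against 5.14% of genes. The gamma-activated site was in those of 6, Myd88, Nlrx1, Nod1, Tlr1, Tlr6 and Tlr8, against 9.55% of genes. In Nod1 it lay in a window of another annotated start. In Myd88 the first bases of the interferon response element overlapped the gamma-activated site, and the 2 interferon response elements of Tlr6 overlapped each other. These are matches of letters in these windows and not sites shown to be bound.

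Total counts were 43577433 to 54025183 in the IC libraries and 40114331 to 56714304 in the vehicle libraries. IC replicate 3 stood apart in interferon-stimulated genes. The summed level of a list of 20 such genes was 1100 CPM (counts scaled to library size) in that library, 612 and 512 in IC replicates 1 and 2, and 438, 473 and 444 in the vehicle libraries. All 20 had a positive log2 fold change (median 0.85) and 3 of them passed the test, against 2.1% of all tested genes. The sorted population had 48600 to 51100 CPM over 10 fibroblast genes after IC and 50600 to 62000 after vehicle. Of these 10 genes 4 were called by DESeq2, against 2.1% of all tested genes. Prg4 rose, with a log2 fold change of 0.94 (adjusted p = 0.0103 by DESeq2). Col3a1, Lum and Fn1 fell, by 0.38, 0.36 and 0.34. The sums of 15 macrophage and monocyte genes overlapped between groups, at 24.8 to 36.6 after IC and 28 to 33.6 after vehicle. Cd68 carried most of these sums, with 1056 to 1625 raw counts against at most 136 (Lyz2) for any other of the genes. Of the 15 genes 9 had a row, 5 were tested and none was called by DESeq2. C1qb and C1qc had 0 to 10 counts, and Ptprc, Adgre1, Itgam, Cd163, C1qa and Tyrobp were not analysed here. Sums of mural and neutrophil genes did not overlap between groups. Called genes were 3 of 10 endothelial, 2 of 10 skeletal muscle and 1 of 7 mural, each lower after IC, against 2.1% of all tested genes called. Endothelial genes were at 219 to 301 after IC and 301 to 356 after vehicle, mural genes at 403 to 505 and 512 to 550, and skeletal muscle genes at 14.2 to 28.5 and 25.0 to 58.6. Lymphocyte genes were 1.22 to 2.61 and 2.51 to 2.93, and neutrophil genes 0.222 to 0.459 and 0 to 0.0353. These sums also rested on few genes. In raw counts Cd79a had 65 to 166 and Trac, the other lymphocyte row, 0 to 18. Notch3 and Cspg4 had 9095 to 14188 and 6836 to 9556, and no other mural gene was above 2121. Tek had 5672 to 7652, and no other endothelial gene was above 2956. The neutrophil rows, S100a8 and Mmp9, had 0 to 14 and were not tested. The part of these cell types in the results below was not tested, and in bulk samples fewer cells of a type and less RNA per cell cannot be told apart.

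The level of each gene in vehicle fibroblasts was compared per length, as normalized counts per 1000 exon bases. Exon bases were the union of all annotated exons of a gene, which can be longer than its main transcript. Among TLRs Tlr4, the receptor for lipopolysaccharide, was highest at 697 ± 49.5 (SD, n = 3 for each level given here). Tlr2, which binds lipoproteins, was at 256 ± 8.41 and Tlr3, which binds double-stranded RNA in endosomes, at 118 ± 6.87. The ranges of these 3 did not overlap. Tlr6, a partner of Tlr2, ranged from 24.0 to 63.4 and Tlr5, the flagellin receptor, from 29.4 to 45.4, so their order was not resolved. Tlr1 and Tlr7 were at 1.18 and 1.59 on this scale, and Tlr7 had 5, 3 and 5 raw counts after IC and 0, 0 and 16 after vehicle. Tlr1 had 0, 0 and 15 raw counts after IC and 0, 10 and 2 after vehicle.

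The co-receptors of Tlr4 were lower than Tlr4 itself. Ly96, which encodes the MD-2 subunit that binds lipopolysaccharide, was at 118 ± 27.6 and Cd14, which delivers lipopolysaccharide to the receptor, at 62.5 ± 7.90 normalized counts per 1000 exon bases. The adaptor Myd88 had the highest level of the set, at 3030 ± 204. The kinase Irak1 was at 1010 ± 74.3 and Irak3, an inhibitory member of that kinase family, at 1000 ± 47.3, and their ranges overlapped. Ticam1, which encodes TRIF, the adaptor of Tlr3, was at 232 ± 35.8. Its partner Ticam2, which encodes TRAM, was at 2.47 ± 2.35.

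Among cytosolic sensors Nod1, a peptidoglycan sensor, was at 650 ± 15.1 normalized counts per 1000 exon bases. Its relative Nod2 was at 36.8 ± 10.8. Tmem173, which encodes STING, was at 556 ± 21.9, and the RNA sensor genes were at 347 ± 30.4 for Ddx58, 275 ± 40.0 for Ifih1 and 131 ± 24.5 for Dhx58. The inflammasome parts were uneven. Casp1, which cleaves pro-interleukin 1β, was at 129 ± 6.03 and the adaptor Pycard at 54.6 ± 5.70, whereas Nlrp3 and Aim2, which assemble inflammasomes on danger signals and on DNA, were at 1.26 and 1.33. The order of Casp1 and Pycard rests on the exon lengths used, 1497 and 3800 bases. Before division by length their mean vehicle counts were 192.8 and 207.5. Nlrp3 had 0, 7 and 6 raw counts after IC and 5, 8 and 3 after vehicle, and Aim2 7, 8 and 10 after IC and 17, 0 and 0 after vehicle.

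**Figure D1:**
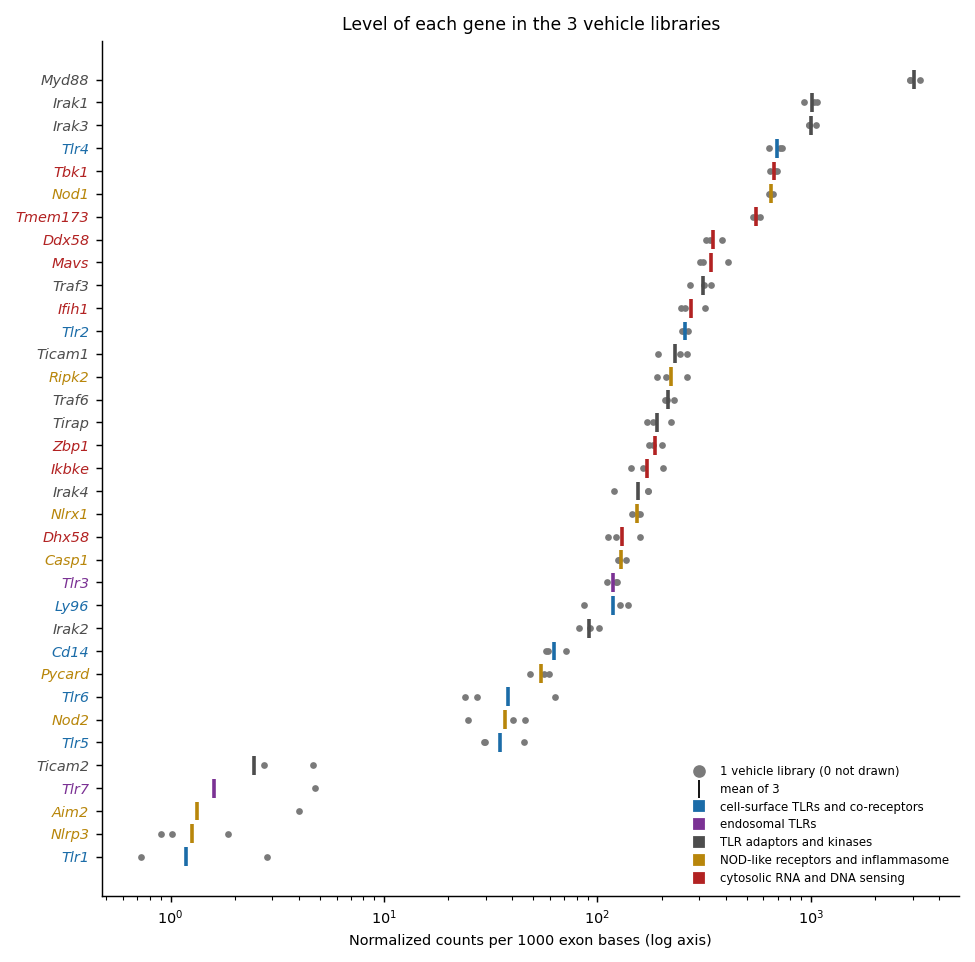
Normalized counts per 1000 exon bases on a log axis for the 35 genes with a row, in the 3 vehicle libraries (grey points) with their mean (bars coloured by role). Myd88 leads at 3030, Tlr4 is the highest TLR at 697, and Ticam2, Tlr7, Aim2, Nlrp3 and Tlr1 lie below all other genes shown.

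IC and vehicle were then compared over the whole table with DESeq2. Nod1, Ddx58 and Zbp1 rose after IC and no gene of the set fell, so 3 of 31 tested genes were called at an adjusted p under 0.05, against 2.1% of all tested genes called and 1.03% called higher. Unadjusted p was under 0.05 for 8 of the 31, against 9.8% of all genes. Every IC library lay above every vehicle library in 6 (Tlr5, Irak3, Nod1, Ddx58, Zbp1 and Tmem173), against 8.09% of genes, and below in 1 (Tlr2), against 7.67%. Log2 fold changes were positive in 17 and negative in 14, with a median of 0.11 and a median over all tested genes near 0 (-0.0019). The quasi-likelihood test of edgeR called none of the 31, against 0.186% of all genes, and gave 7 with an unadjusted p under 0.05, against 9.64%. limma-voom also called none, against 62 of the 19925 tested genes, so each of the 3 calls rests on DESeq2. It gave 7 of the set an unadjusted p under 0.05, and the share of all genes for that was not computed.

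**Figure D2:**
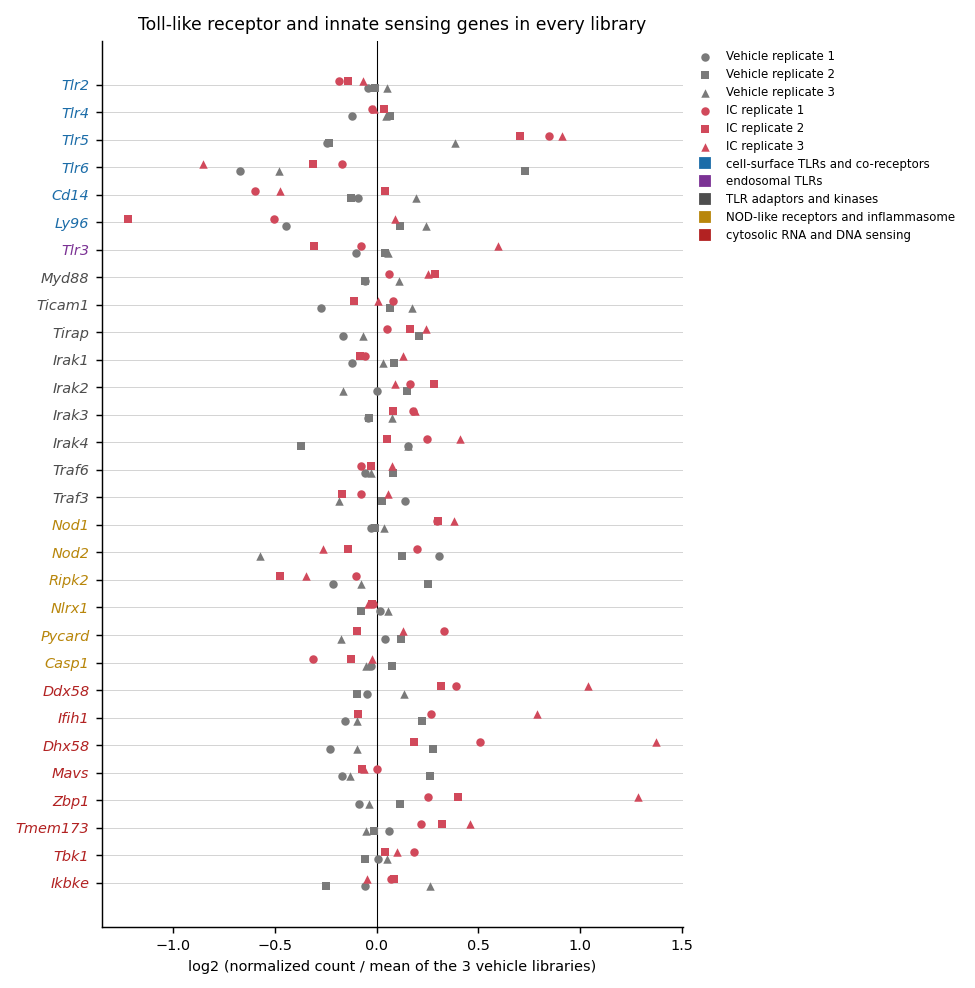
Log2 of the normalized count over the mean of the 3 vehicle libraries, for 30 tested genes in each library (grey vehicle, red IC, with the shape giving the replicate). Ticam2 is left out because vehicle replicate 2 is at 0. In Nod1 the 3 IC points lie together to the right of the vehicle points, whereas in Ddx58, Dhx58 and Zbp1 IC replicate 3 lies far to the right of the other libraries.

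Of the cell-surface TLRs and co-receptors, 0 of 6 tested genes were called by DESeq2, against 2.1% of all tested genes. Of the 6 log2 fold changes 5 were negative (median -0.22), with Tlr4 at -2.9e-05. None of those 5 had an unadjusted p under 0.05 by DESeq2. The remaining 1 had such a p, against 9.8% of all tested genes. The gene with the unadjusted p was Tlr5 (chromosome 1, 182954788 to 182976044). It had 299.7, 271.8 and 313.6 normalized counts in IC replicates 1, 2 and 3 and 141.0, 141.7 and 217.6 in vehicle replicates 1, 2 and 3. Each IC library was above each vehicle library, and vehicle replicate 3 was the closest to the IC range. The difference of 0.83 ± 0.26 (SE) on the log2 scale, 1.78-fold (95% interval 1.25 to 2.53), missed the threshold (adjusted p = 0.0529 by DESeq2, 0.208 by edgeR). The adjusted p was 0.0497 with TMM scaling, 0.0458 with total-count scaling and 0.00289 without vehicle replicate 3, and 0.245 without IC replicate 3.

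Tlr4 was not called. It had 3808, 3967 and 3835 normalized counts after IC and 3555, 4056 and 4003 after vehicle, and the 95% interval of its log2 fold change ran from -0.18 to 0.18. Tlr2 had 679.9, 699.7 and 736.6 normalized counts after IC and 750.3, 767.0 and 800.1 after vehicle. Each IC library was below each vehicle library, but the log2 fold change of -0.13 ± 0.14 had an adjusted p of 0.854 by DESeq2. Tlr6, Cd14 and Ly96 had log2 fold changes of -0.42 ± 0.41, -0.31 ± 0.36 and -0.44 ± 0.41 with overlapping groups, and none was called. Their normalized counts were 51.7 to 236.1 over the 6 libraries, and the errors were wider than those of Tlr2 and Tlr4.

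The 1 tested endosomal receptor, Tlr3, was not called. It had 585.1, 498.2 and 932.0 normalized counts after IC and 575.6, 633.8 and 640.8 after vehicle. IC replicate 3 was the highest of the 6 libraries, while IC replicate 1 lay within the vehicle range and IC replicate 2 below it. Its log2 fold change was 0.13 ± 0.21 (adjusted p = 0.929 by DESeq2), and turned to -0.19 without IC replicate 3 (adjusted p = 0.856).

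None of the 10 adaptor and kinase genes was called by DESeq2, and 1 had an unadjusted p under 0.05, against 9.8% of all tested genes. That gene was Myd88, the adaptor of most TLRs and of the interleukin 1 receptor, with 8142, 9521 and 9298 normalized counts after IC and 7488, 7503 and 8404 after vehicle. IC replicate 1 lay within the vehicle range. On the log2 scale Myd88 differed by 0.21 ± 0.09 (adjusted p = 0.293 by DESeq2), short of a call. The exons of Myd88 share 11.3% of their bases with Acaa1a on the opposite strand, and whether strand was used in counting is not given in the sources used here.

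Irak3, which restrains signalling from the MyD88 complex, had 4182, 3903 and 4213 normalized counts after IC and 3589, 3595 and 3893 after vehicle. Its groups were separated by a narrow gap, and the log2 fold change of 0.15 ± 0.09 had an adjusted p of 0.549 by DESeq2. For Irak1, a kinase of that complex, the 95% interval of the log2 fold change was -0.19 to 0.19, and for Traf6, the ubiquitin ligase downstream of it, -0.22 to 0.20. In folds these intervals were 0.878 to 1.14 and 0.860 to 1.15. Ticam1, Tirap, Irak2, Irak4 and Traf3 had log2 fold changes of 0.00, 0.16, 0.18, 0.24 and -0.06, each with overlapping groups.

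Ticam2 had the largest log2 fold change of the 31 tested genes, with the largest error. It had 26, 50 and 11 raw counts after IC and 33, 0 and 13 after vehicle. The groups overlapped, the log2 fold change was 1.07 ± 1.05, and DESeq2 gave it no adjusted p. Its exons share 14.5% of their bases with Tmed7 on the same strand.

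**Figure D3:**
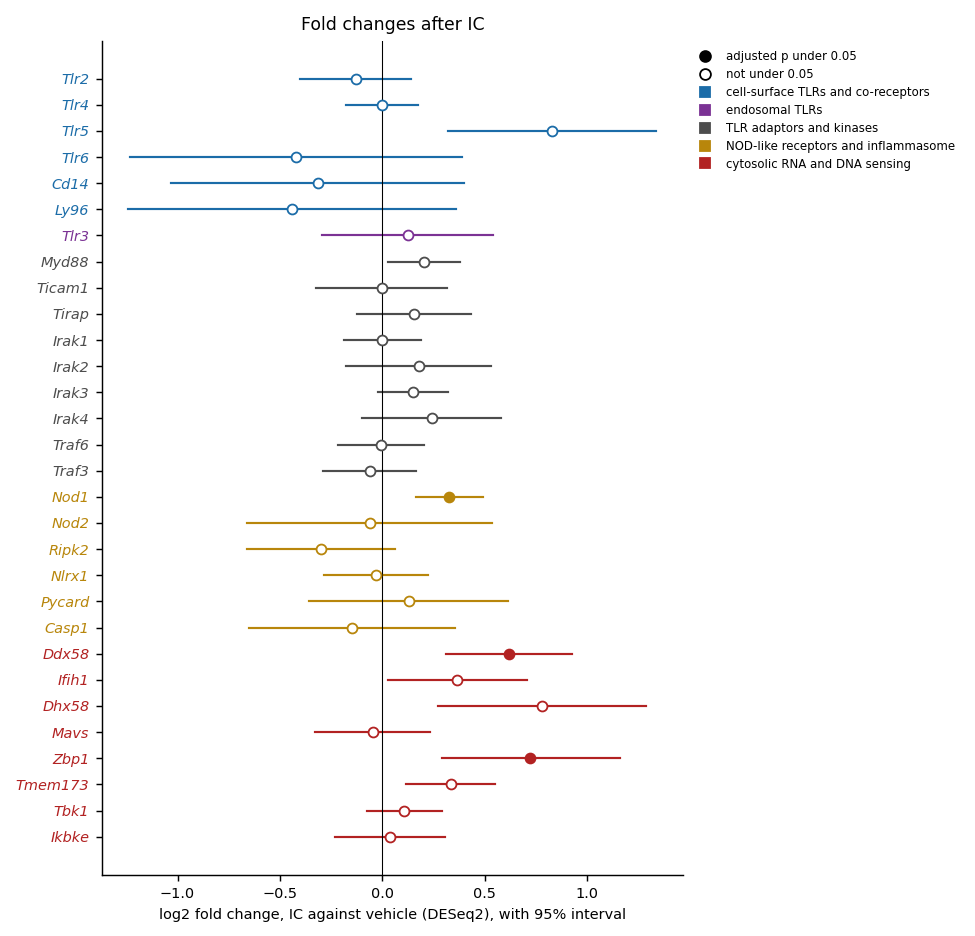
DESeq2 log2 fold changes of IC against vehicle with 95% intervals for 30 tested genes, coloured by role. Filled points passed an adjusted p of 0.05 (Nod1, Ddx58 and Zbp1), and Ticam2, whose interval ran from -0.98 to 3.12, is not drawn.

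Of the NOD-like receptors and inflammasome genes, 1 of 6 tested genes was called, against 2.1% of all tested genes. It was Nod1 (chromosome 6, 54923949 to 54972612). Nod1 had 4057, 4066 and 4291 normalized counts in IC replicates 1, 2 and 3 and 3233, 3283 and 3384 in vehicle replicates 1, 2 and 3. The spread within each group was small, the groups did not overlap, and no single library set the difference. Nod1 rose 1.25-fold (95% interval 1.12 to 1.41), or by 0.33 ± 0.08 on the log2 scale (adjusted p = 0.00723 by DESeq2, 0.0981 by edgeR). Nod1 was called in each of the 6 fits that left out 1 library, with adjusted p-values of 0.0107 to 0.0379, and was the 1 gene of the set for which this held.

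The other 5 tested genes of this group were not called. Ripk2, the kinase that carries the signals of Nod1 and Nod2, had 579.6, 447.5 and 489.3 normalized counts after IC and 535.4, 740.6 and 588.5 after vehicle, with overlapping groups and a log2 fold change of -0.30 ± 0.19 (adjusted p = 0.605 by DESeq2). Nod2 was at -0.06 ± 0.31. Nlrx1, a mitochondrial member of the family, was at -0.03 ± 0.13, Pycard at 0.13 ± 0.25 and Casp1 at -0.15 ± 0.26, all with overlapping groups. Exons of Nlrx1 and Pycard share 11.9% and 12.8% of their bases with predicted genes on the opposite strand.

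Cytosolic RNA and DNA sensing held 2 called genes among 8 tested, against 2.1% of all genes, and 5 with an unadjusted p under 0.05, against 9.8%. Of the 8 log2 fold changes 7 were positive, with a median of 0.35. IC replicate 3 was the highest library in 5 of the 8, and in the whole set in 12 of 31. The share of all tested genes for which this held was not computed.

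Ddx58 (chromosome 4, 40203773 to 40239828) encodes RIG-I, a sensor of viral RNA. It had 3206, 3047 and 5028 normalized counts in IC replicates 1, 2 and 3 and 2368, 2286 and 2691 in the vehicle replicates. The groups did not overlap, and IC replicate 3 was the highest. Ddx58 rose 1.54-fold (95% interval 1.24 to 1.90), or by 0.62 ± 0.16 on the log2 scale (adjusted p = 0.00587 by DESeq2, 0.185 by edgeR). Without IC replicate 3 the log2 value was 0.35 (adjusted p = 0.0728), without vehicle replicate 1 it was 0.59 (0.390) and without vehicle replicate 2 it was 0.57 (0.614), and the call was kept in the other 3 such fits.

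Zbp1 (chromosome 2, 173206612 to 173218923) encodes a sensor of left-handed nucleic acids that can start necroptosis. It had 781.3, 866.2 and 1600 normalized counts after IC and 618.2, 710.3 and 639.6 after vehicle. IC replicates 1 and 2 were just above the vehicle libraries and IC replicate 3 far above. Zbp1 rose 1.65-fold (95% interval 1.22 to 2.23), or by 0.72 ± 0.22 on the log2 scale (adjusted p = 0.0449 by DESeq2, 0.295 by edgeR). The log2 value was 0.33 without IC replicate 3 (adjusted p = 0.472), and 0.68, 0.79 and 0.71 without vehicle replicates 1, 2 and 3, where the call was also lost (0.133, 0.134 and 0.283). Zbp1 was not called either when independent filtering was off.

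Dhx58, which encodes LGP2, a regulator of RIG-I and MDA5, was not called. It had 610.5, 486.8 and 1113 normalized counts after IC and 366.5, 519.5 and 401.2 after vehicle. IC replicate 2 lay within the vehicle range and IC replicate 3 was the highest library. The log2 fold change was 0.78 ± 0.26 (adjusted p = 0.0793 by DESeq2), 1.01 without IC replicate 2 (0.0184) and 0.36 without IC replicate 3 (0.688). Its exons share 4.31% of their bases with Dhx58os on the opposite strand.

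Ifih1, which encodes MDA5, a sensor of long double-stranded RNA, had 2703, 2107 and 3877 normalized counts after IC and 2014, 2618 and 2102 after vehicle. IC replicate 2 was within the vehicle range. On the log2 scale the difference was 0.37 ± 0.17 (adjusted p = 0.358 by DESeq2) and 0.10 without IC replicate 3 (0.932).

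Tmem173 (chromosome 18, 35733679 to 35740554) had 1772, 1901 and 2092 normalized counts after IC and 1588, 1511 and 1470 after vehicle. The groups did not overlap, and the 3 IC libraries were more spread (SD 161) than the vehicle libraries (SD 60). Its difference of 0.34 ± 0.11 on the log2 scale, 1.26-fold (95% interval 1.08 to 1.47), missed the threshold (adjusted p = 0.0796 by DESeq2, 0.208 by edgeR), and passed it without vehicle replicate 1 (0.0486). Without IC replicate 3 the log2 value was 0.27 (0.335).

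Mavs, Tbk1 and Ikbke relay the signals of these sensors. Mavs, the mitochondrial adaptor of the RNA sensors, had a log2 fold change of -0.05 with a 95% interval of -0.33 to 0.24. The kinases Tbk1 and Ikbke, which phosphorylate interferon regulatory factors, were at 0.11 (-0.08 to 0.29) and 0.04 (-0.23 to 0.31). None of the 3 was called by DESeq2 and none had an unadjusted p under 0.05.

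IC replicate 3 was then set against the other IC libraries. Among the 29 tested genes of the set with a mean of at least 100 normalized counts, IC replicate 3 was at least 1.5 times the mean of IC replicates 1 and 2 in 6, against 1.91% of all genes at that level. These were Dhx58 at 2.03 times, Zbp1 at 1.94, Ly96 at 1.88, Tlr3 at 1.72, and Ddx58 and Ifih1 at 1.61. Ly96 differed in that IC replicate 3, at 128.1, lay within its vehicle range of 88.55 to 142.3. Its IC replicates 1 and 2 were at 84.85 and 51.68, below that range. Of the 6, 4 belonged to the cytosolic sensing group, and Tlr3 senses RNA in endosomes. In Nod1 the ratio was 1.06, in Tlr5 1.10 and in Tmem173 1.14. Without that library 1 gene of the set was called, Nod1, against 1.52% of all genes tested there. The interferon-stimulated list was highest in the same library, and its part in the 6 genes was not tested.

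**Figure D4:**
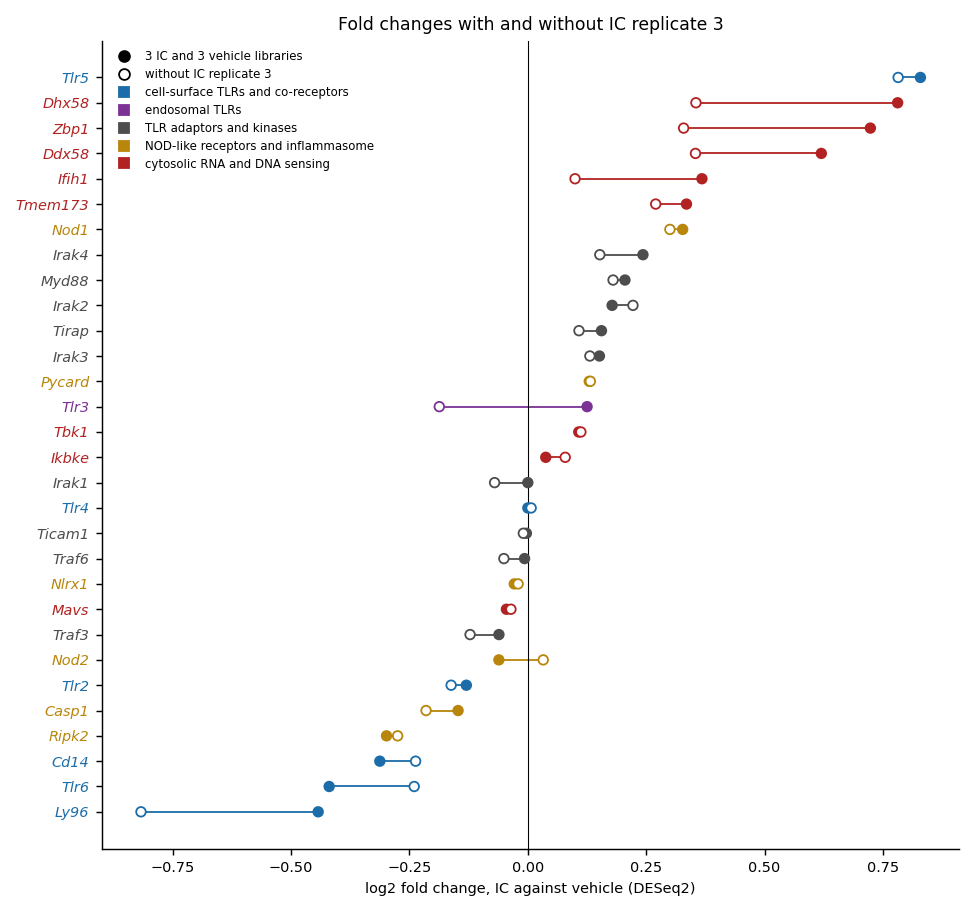
DESeq2 log2 fold changes of 30 tested genes from all 6 libraries (filled) and without IC replicate 3 (open), coloured by role. Ddx58, Zbp1, Dhx58 and Ifih1 move toward 0, from 0.62, 0.72, 0.78 and 0.37 to 0.35, 0.33, 0.36 and 0.10, while Nod1 (0.33 and 0.30) and Tlr5 (0.83 and 0.78) keep their place.

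A further list of 121 symbols from the same pathways was read from the same fit, with 109 in the table and 104 tested. Of these 11 were called, 6 higher and 5 lower, or 10.6% of those tested, against 2.1% of all tested genes. The list was chosen with earlier results of these data known. This share and those of its parts below are therefore descriptive and do not test enrichment. The median log2 fold change was 0.03, 15 genes had every IC library above every vehicle library, against 8.09% of all genes, and 11 had every one below, against 7.67%. edgeR called 1 of the 11, Txnip. None of 22 tested signal relays, which act between receptor and nucleus, was called by DESeq2. Only 1 had an unadjusted p under 0.05, against 9.8% of all tested genes. That was Irf7, an interferon-induced transcription factor that is also on the interferon-stimulated list, at 0.48 ± 0.15 (adjusted p = 0.0656).

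Of 10 tested trafficking and accessory genes 1 was called, against 2.1% of all tested genes. It was Hsp90b1, which encodes gp96, the chaperone that folds most TLRs. It had 17360, 18030 and 19930 normalized counts after IC and 13330, 15250 and 15140 after vehicle, with no overlap. The log2 fold change was 0.34 ± 0.09 (adjusted p = 0.00543 by DESeq2, 0.141 by edgeR), and 0.28 without IC replicate 3 (0.0642). Of 15 tested negative regulators 1 was called, against 2.1% of all tested genes. It was Cd200, a surface ligand that restrains myeloid cells, which fell by 0.54 on the log2 scale (adjusted p = 0.0262 by DESeq2). Cd200 was called in 2 of the 6 fits that left out 1 library.

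Of 27 tested partners of RNA and DNA sensing 4 were called, against 2.1% of all tested genes. Oasl1, Eif2ak2 and Adar rose, with log2 fold changes of 1.79 ± 0.53, 0.52 ± 0.15 and 0.43 ± 0.12 (adjusted p = 0.0328, 0.0359 and 0.0161 by DESeq2). Eif2ak2 encodes PKR, a kinase that binds double-stranded RNA, Adar an enzyme that edits such RNA, and Oasl1 a relative of the oligoadenylate synthetases. Without IC replicate 3 their log2 fold changes were 0.73, 0.30 and 0.32, and none was called (adjusted p = 0.777, 0.343 and 0.179). Dtx4, a ubiquitin ligase that acts on TBK1, fell by 0.37 (adjusted p = 0.0223 by DESeq2). Its call was kept in 2 of the 6 fits that left out 1 library.

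Of 19 tested inflammasome and NOD partners 1 was called, against 2.1% of all tested genes. Txnip, which binds thioredoxin and can bind NLRP3, had 24970, 25680 and 25350 normalized counts after IC and 37750, 44410 and 38270 after vehicle. The IC libraries lay close together and far below the vehicle libraries. The log2 fold change was -0.66 ± 0.08 (adjusted p = 3.81e-13 by DESeq2, 0.0141 by edgeR), and did not move without IC replicate 3 (-0.66, 6.54e-10). Txnip is also known to follow glucose and growth signals.

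Matrix proteins and alarmins that can act as TLR ligands held 4 called genes of 11 tested, in both directions, against 2.1% of all genes called. Vcan and Tnc rose by 0.33 and 0.46 on the log2 scale (adjusted p = 0.0220 and 0.0351 by DESeq2), and the groups of Tnc overlapped. Lum and Fn1 fell by 0.36 and 0.34 (0.00250 and 0.0494). In the 6 fits that left out 1 library, Lum was called in 5, Vcan and Tnc in 2 each and Fn1 in 1. Without IC replicate 3 the adjusted p by DESeq2 was 0.193 for Vcan, 0.200 for Tnc, 0.000143 for Lum and 0.0974 for Fn1. These 4 are structural matrix genes of fibroblasts. Lum and Fn1 also stand on the fibroblast marker list, of which 4 of 10 were called, 1 of them higher.

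**Figure D5:**
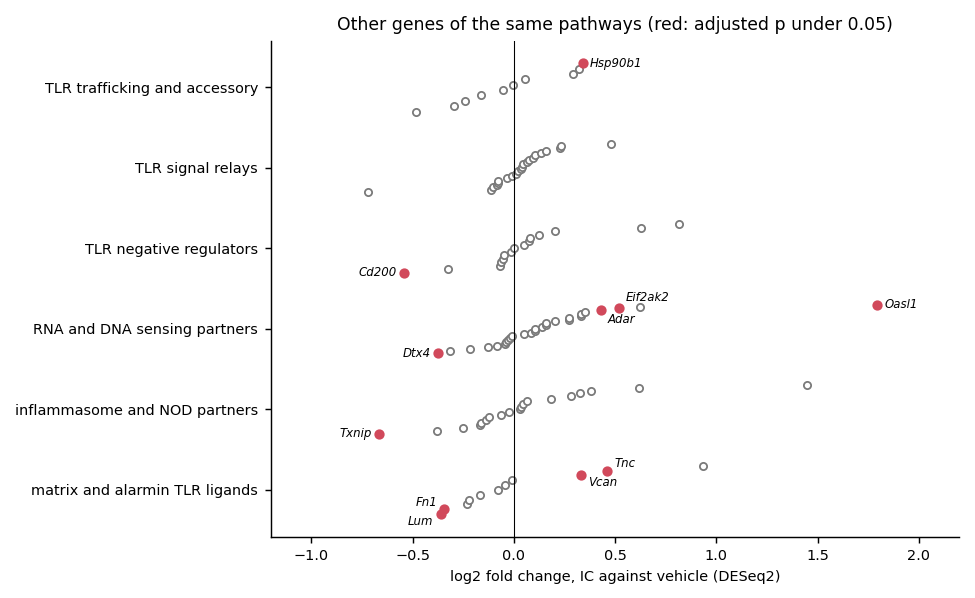
DESeq2 log2 fold changes of the 104 tested pathway genes, by list and sorted within each list, with the 11 called genes in red and named. Oasl1 lies farthest to the right at 1.79, and Txnip is the called gene farthest to the left at -0.66.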

How the data were processed

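The authors deposited unnormalized read counts for each gene. They had trimmed the reads with Trim Galore, checked them with FastQC, aligned them to mm10 with HISAT2 and counted them with featureCounts. Versions, annotation and strand setting are not given in the sources used here. The labels and the study name different library kits, and the study removed batch effects with sva, for which the labels give no batch.

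Groups and replicate numbers came from the labels, and depth is given with the results. A gene was tested if 3 or more libraries had 10 or more counts. IC and vehicle were compared in DESeq2 1.42.0 (R 4.3.3) by its Wald test, with treatment as the term. Benjamini-Hochberg adjustment ran over the tested genes that DESeq2's independent filtering kept. The 4423 genes left out held 0.0429% of counts. A further 3870 tested genes had no adjusted p, and these count as not called in the shares of all tested genes. Normalized counts are counts divided by size factors, fold changes are unshrunken, and exon lengths and coordinates came from GENCODE M21 on GRCm38. As alternatives, DESeq2 was replaced by edgeR's quasi-likelihood test (4.0.16) or limma-voom (3.58.1), scaling was by TMM or by total counts, the count filter or independent filtering was dropped, a replicate block or 1 surrogate variable (sva 3.50.0) was added, and each library was left out. The tests were checked on simulated data.

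The genes and lists were chosen with earlier results of these data known. Values in every library were to be given for called genes, for genes with an unadjusted p under 0.05 and no overlap, and for log2 fold changes of at least 1 in size with a mean of at least 10. Values of other genes were chosen after seeing the data.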

Additional observations from a re-analysis of the deposited data

How the results depend on the processing

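DESeq2 called 419 genes, 3 of the set (Nod1, Ddx58, Zbp1) and 11 other pathway genes. The counts were 37, 0 and 1 with edgeR and 62, 0 and 1 with limma-voom. With the replicate block they were 320, 1 (Ddx58) and 6 by DESeq2, and 22, 0 and 1 by edgeR. The labels do not say whether libraries of one number shared a batch, so the main fit held no block. Over 13435 genes, deviations from the group means correlated at -0.09, -0.16 and 0.03 between libraries of one number. With 1 surrogate variable 334 genes were called in all, with 2 genes of the set (Nod1, Dhx58) and 6 pathway genes. TMM and total-count scaling called 427 and 439 genes in all and each called 4 of the set, adding Tlr5. Independent filtering off called 372 genes in all and 2 of the set (Nod1, Ddx58). Leaving out 1 library at a time gave 281 to 677 genes, 1 to 4 of the set and 4 to 9 pathway genes. The causes were not tested.

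Of the log2 fold changes of single genes under each alternative, 397 kept their direction and side of the threshold, 41 turned, 6 gained a call and 21 lost one. Those that turned belonged to 10 uncalled genes. Under limma-voom and total-count scaling Tlr4 was 0.0043 and 0.0079, Ticam1 0.026 and 0.0062 and Irak1 0.0026 and 0.0072. Without the count filter Tlr4 and Irak1 were 0.00067 and 0.00068. With the replicate block Tlr4 was 0.0018 and Ticam1 0.0045 by DESeq2, and 0.0013 and 0.0040 by edgeR. With 1 surrogate variable Tlr4 was 0.033, Tlr6 0.097, Ticam1 0.037, Irak1 0.044, Traf6 0.032, Mavs 0.087 and Ikbke -0.052. With 1 library left out the ranges were -0.19 to 0.30 for Tlr3, -0.060 to 0.037 for Tlr4, -0.67 to 0.16 for Tlr6, -0.12 to 0.090 for Ticam1, -0.070 to 0.046 for Irak1, -0.051 to 0.038 for Traf6, -0.15 to 0.014 for Traf3, -0.28 to 0.12 for Nod2, -0.13 to 0.11 for Mavs and -0.071 to 0.19 for Ikbke. Depth limited Tlr1, Tlr7, Nlrp3, Aim2 and Ticam2, with at most 50 counts in a library.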
